A study of Mus musculus with 12 samples.

Results

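The 41 genes described here act in mitosis: they drive entry into it, build the spindle, hold and then release sister chromatids, condense chromosomes and divide the cell. They were taken by symbol from the 43432 gene identifiers of each of 12 RNA libraries of mouse neural stem cells (NSCs), and all 41 were measured in every library. No measured value picked or dropped a member, but the list was chosen with earlier results of these data known. The NSCs came from the subventricular zone (SVZ) of wild-type C57BL/6 males aged 6 to 8 weeks, and were grown on poly-ornithine and laminin in DMEM/F12 with B27, L-glutamine and the growth factors EGF and bFGF. All groups shared this strain, genotype and medium, and differed in folic acid, given at 1.5 µM (LF), 10 µM (MF, the reference dose) or 80 µM (HF) until day 4, and in the RNA fraction sequenced. Total mRNA is the poly(A) RNA of the whole lysate. Polysome mRNA is the poly(A) RNA that sedimented in a sucrose gradient with more than 3 ribosomes, and the ratio of polysome to total mRNA is called translation efficiency (TE) below. Each of the 6 groups had 2 libraries. The labels call them biological replicates but name no animal or culture of origin, so p-values measure the spread between these libraries only. The cells were thus studied as a culture in growth factors, outside the SVZ niche.

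The mRNAs of mitosis genes are made late in the cell cycle, in G2 and mitosis, and most of their proteins are destroyed as the cell exits mitosis. Their promoters are commonly held off in resting cells through a cell cycle homology region, a short element bound by the DREAM and MuvB complexes, and are driven by B-MYB and FOXM1 and by NF-Y at CCAAT boxes. In the adult SVZ, expression of this group is used to tell dividing stem and progenitor cells from quiescent ones, and EGF and bFGF keep cultured NSCs dividing. In RNA from whole cultures, fewer cells in mitosis and less of an mRNA in each such cell cannot be told apart.

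Total mRNA libraries held 20506783 to 23593231 expected counts and polysome libraries 24193454 to 28170297, and the lowest count of any member in any library was 127. All 41 members passed the low-count filter of every test. Replicates were close in total mRNA and in MF and HF polysome mRNA, where at most 0.784% of all tested genes differed by over 2-fold between the replicates of a group. The LF polysome replicates stood apart from each other, with 14.3% of all genes and 6 of the 41 members over 2-fold apart. Counts of calls, counts of signs and medians of the members that involve LF polysome mRNA are therefore also given with each of these libraries left out, whereas counts of libraries that do not overlap use both. The cultures held the NSC markers Nes at 357 to 469, Sox2 at 100 to 115 and Vim at 3753 to 4486 TPM (transcript abundance divided by length and scaled to a common total) in total mRNA. All 5 endothelial markers were under 1 TPM there. Other lists were under 1 TPM in part: 3 of 5 astrocyte, 3 of 5 oligodendrocyte, 2 of 6 neuroblast and neuron and 3 of 5 microglia markers. Their summed levels in total mRNA were 170.6 to 203.1, 71.11 to 77.06, 154.7 to 170.8 and 5.03 to 7.39 TPM. Of 8 mural and mesenchymal markers, Col1a1 and Rgs5 were under 1 TPM, but the summed level of the list was 272.1 to 430.4 TPM in total mRNA and 476.9 to 951.9 TPM in polysome mRNA. In total mRNA this sum was lower at higher doses, with means of 415.2 (LF), 387.4 (MF) and 299.0 TPM (HF), and in polysome mRNA it was highest at HF, with means of 572.3, 606.3 and 871.6 TPM. Its part in the results below was not tested. In the annotation used here, 12 of the 41 members share exon positions with another gene, among them Ccna2 with Exosc9, Nusap1 with Oip5, Ube2c with Tnnc2, Cdc20 with Elovl1 and Plk1 with Gm44985. Whether the authors' counting used the strand is not stated in the sources used here, so the counts of these members are uncertain to that extent.

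The promoters of the members shared sequence elements that the choice by symbol did not use. In RefSeq windows of 250 bases before to 50 after the transcription start (GRCm38.p6, the mm10 assembly), available for 35 of the 41 members, the letters TTTGAA, the core of the cell cycle homology region, were present on either strand in 26 members (74.3%), against 17.9% of all promoters. The related TTTAAA was present in 10 (28.6%, against 13.2%). A CCAAT box, read on either strand, was found in 26 members (74.3%, against 37.4% of all promoters), and at least 2 of them in 17 (48.6%, against 11.7%). One of both kinds of element stood in 25 of the 35 member promoters (71.4%) and in 10.7% of all promoters. Such a match describes the letters and is not evidence of binding. Aurkb, Tpx2, Ccna2, Smc4, Kif20a and Incenp had no entry. The stretches from 100 bases before to 15 after the start are shown for 6 members, with a kinase, a cyclin, the anaphase activators Cdc20 and Ube2c and a chromosome protein among them, because they hold both kinds of element close to the start. Capitals mark these 3 elements on either strand.
Cdk1, chr10:69352898-69353012, minus strand: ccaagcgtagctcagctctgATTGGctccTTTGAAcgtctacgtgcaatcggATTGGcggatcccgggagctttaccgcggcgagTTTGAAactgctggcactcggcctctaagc
Ccnb2, chr9:70421540-70421654, minus strand: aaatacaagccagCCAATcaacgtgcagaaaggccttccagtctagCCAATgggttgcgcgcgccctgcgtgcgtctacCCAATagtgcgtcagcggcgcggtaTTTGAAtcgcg
Cdc20, chr4:118437329-118437443, minus strand: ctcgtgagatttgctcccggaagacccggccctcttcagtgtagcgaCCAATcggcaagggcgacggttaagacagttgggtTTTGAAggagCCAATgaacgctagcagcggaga
Ube2c, chr2:164769829-164769943, plus strand: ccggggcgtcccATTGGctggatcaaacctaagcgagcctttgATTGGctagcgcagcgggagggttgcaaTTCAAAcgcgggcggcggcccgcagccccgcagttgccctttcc
Plk1, chr7:122159335-122159449, plus strand: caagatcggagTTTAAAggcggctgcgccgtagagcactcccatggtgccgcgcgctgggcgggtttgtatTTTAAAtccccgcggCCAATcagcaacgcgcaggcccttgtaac
Top2a, chr11:99024175-99024289, minus strand: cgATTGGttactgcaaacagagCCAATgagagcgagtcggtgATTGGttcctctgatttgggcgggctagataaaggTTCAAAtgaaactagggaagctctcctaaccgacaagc
The elements differ in number and order between these promoters. Cdk1 and Top2a carry CCAAT boxes upstream of the element nearest the start, and Plk1 has the TTTAAA form of it.

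The members were abundant in total mRNA at every dose. On the TPM scale, which divides by transcript length and so compares genes, Cdk1, the kinase that drives mitotic entry, was highest at 634 ± 14.8 TPM, and Top2a, the topoisomerase that untangles sister DNA, followed at 454 ± 18.2 TPM (SD over the 6 total libraries, 2 per dose). Espl1, the separase that cuts cohesin at anaphase, was lowest at 19.3 ± 0.74 TPM. Their ranks among all listed genes ran from percentile 83.6 for Espl1 to 99.5 for Cdk1. Over the 6 libraries the coefficient of variation of a member was 1.57% to 13.2%, with a median of 3.87%, and Pttg1 had the highest. Together the 41 genes summed to between 4907.98 and 5117.58 TPM in a total library, so the pool of mitosis mRNA was within a narrow range at all 3 doses. Cdkn1a, the cell cycle inhibitor p21, was at 454 to 491 TPM in the same libraries.

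**Figure D1:**
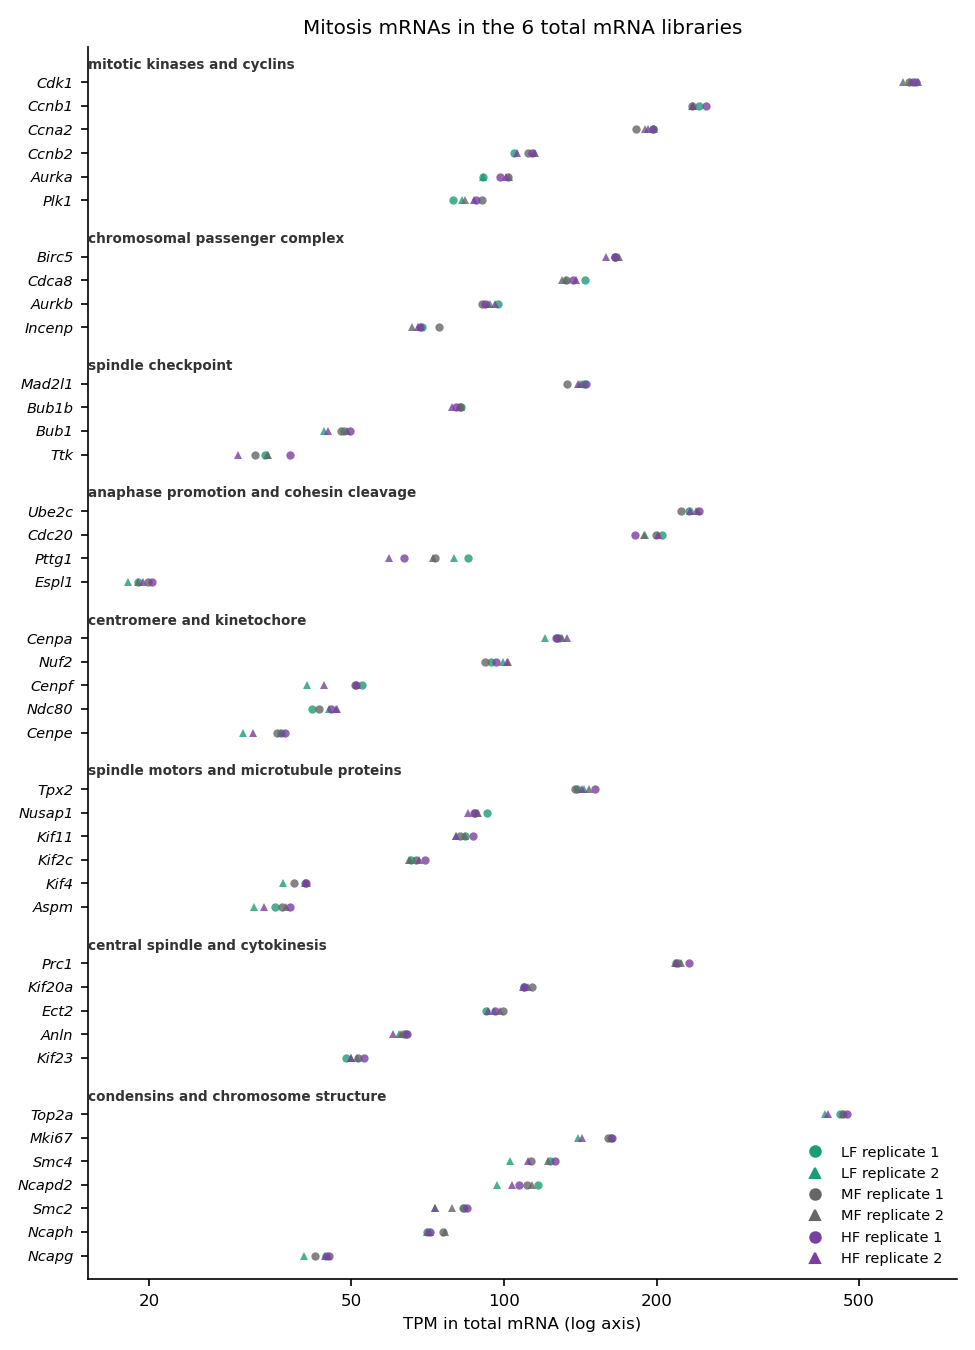
Total mRNA level of the 41 members in TPM (log axis), grouped by role, with 1 point per library, the dose by colour and the replicate by shape. The points of a gene lie close together at all 3 doses, from the level of Espl1 (19.3 TPM) to that of Cdk1 (634 TPM), and Pttg1 runs from 84.7 TPM at LF to 59.2 TPM at HF.

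The first question was whether the dose changed the abundance of these mRNAs. A change was called for 1 member in 1 comparison, and that call was near the threshold. Of the 41 members, 0 were called in HF against MF, where edgeR's quasi-likelihood test called 0.0288% of all genes higher and 0.0575% lower, and 0 in LF against MF, where 0.00719% of all genes were called higher and 0.0% lower. DESeq2 also called 0 members in both. At an unadjusted p under 0.05 there was 1 member in each, beside 6.98% of all genes in HF against MF and 6.27% in LF against MF. The members' log2 fold changes in HF against MF ran from -0.18 to 0.12 with a median of 0.02, and those in LF against MF had a median of -0.01. A call means that the adjusted p was under 0.05 with a fold above 1.2. In HF against LF the called member was Pttg1, and 0.805% of all genes were called higher and 0.985% lower.

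Pttg1 encodes securin, the inhibitor that holds separase inactive until anaphase (mm10 chr11:43420250-43426251, minus strand). Its total mRNA was 22.7 and 21.3 CPM (counts scaled by library size and TMM) at LF, 19.1 and 19.9 at MF and 17.9 and 16.6 at HF. Each dose lay below the next lower one without overlap. The log2 fold change in HF against LF was -0.35 ± 0.09 (SE), 1.27-fold lower, with an adjusted p of 0.0474. That call was near the threshold: it was lost in the fit of the compared libraries alone, in DESeq2 (adjusted p = 0.208) and when any 1 total library was left out (adjusted p 0.0910 to 0.229 in edgeR). A descent through the 3 doses without overlap was seen in this 1 of 41 members and in 3.08% of all genes. The next smallest p-values of HF against LF belonged to kinases. Aurka, which matures the centrosomes, was at 83.3 and 86.7 CPM at LF and 92.8 and 93.2 at HF (log2 fold change 0.13, adjusted p = 0.275). Plk1, which acts from mitotic entry to cytokinesis, was at 89.8 and 96.0 CPM at LF and 101.4 and 99.9 at HF (0.12, adjusted p = 0.391). For both, the HF libraries were above the LF libraries by less than the called fold. In HF against MF the smallest p-values belonged to Ccnb1, the main cyclin partner of Cdk1 (log2 fold change 0.12, adjusted p = 0.604), Pttg1 (-0.18, adjusted p = 0.766) and the S phase and G2 cyclin Ccna2 (0.07, adjusted p = 0.823). In LF against MF they belonged to Aurka (-0.15, adjusted p = 0.688), the spindle pole protein Aspm (-0.11, adjusted p = 0.786) and Ccna2 (0.09, adjusted p = 0.789). Both HF libraries were above both MF libraries in 6 members (19.9% of all genes) and below in 4 (18.4%), both LF libraries were above MF in 8 (18.1%) and below in 6 (17.1%), and both HF libraries were above LF in 6 (20.7%) and below in 2 (21.4%). These comparisons share the libraries of a dose, so their values are not independent.

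The polysome fraction held much less of these mRNAs than total mRNA did. Over the 3 doses, 30 of the 41 members were called lower in polysome than in total mRNA, against 38.4% of all genes, and 4 were called higher, against 32.7% of all genes. The median log2 ratio of the members was -0.98, that is 1.97-fold lower, beside -0.09 for all genes tested. The members took 0.779% to 0.819% of the counts in total libraries. In polysome libraries they took 0.395% and 0.419% at LF, 0.374% and 0.338% at MF and 0.264% and 0.301% at HF. Every polysome library was thus below every total library, and both HF libraries were below those of LF and MF.

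Of the 6 kinases and cyclins, 2 were called higher and 2 lower in polysome mRNA. Cdk1 was higher, with a log2 ratio of 0.52 ± 0.09 (1.43-fold, adjusted p = 0.000325), and so was Ccnb2, a mitotic cyclin (0.36 ± 0.09, 1.29-fold, adjusted p = 0.00301). Cdk1 stood at 224.0 to 235.1 CPM in total libraries and at 398.9 and 450.2 (LF), 343.9 and 263.6 (MF) and 242.2 and 301.2 CPM (HF) in polysome libraries, each of which was above every total library. Ccna2 was lowest of this group (-0.99 ± 0.06, 1.99-fold lower, adjusted p = 2.67e-07). Plk1 was also called lower (-0.90), while Ccnb1 (-0.23, adjusted p = 0.0523) and Aurka (0.04, adjusted p = 0.711) were not called.

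The chromosomal passenger complex, which corrects wrong attachments of chromosomes to the spindle, was split. Cdca8, its borealin subunit, was higher in polysome mRNA (0.47 ± 0.08, 1.38-fold, adjusted p = 0.000258) and Incenp, its scaffold, was lower (-0.86 ± 0.11, 1.81-fold, adjusted p = 3.1e-05). The kinase Aurkb (-0.18, adjusted p = 0.132) and survivin, Birc5 (0.23, adjusted p = 0.0154, under the called fold), were not called. The 4 subunits of this complex thus did not share a ratio.

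Of the spindle checkpoint genes, which delay anaphase until all chromosomes are attached, the 3 kinase genes were called lower. Ttk, which starts checkpoint signalling, was at 45.3 to 58.1 CPM in total and 11.0 to 20.1 CPM in polysome libraries (-1.85 ± 0.14, 3.6-fold lower, adjusted p = 7.68e-07), and Bub1 (-1.54) and Bub1b (-0.48) were called lower too. Mad2l1, the small protein that inhibits Cdc20, had a ratio of -0.08 (adjusted p = 0.439). Of the 4 genes for anaphase onset, Pttg1 had the highest ratio of all 41 members (0.99 ± 0.10, 1.99-fold, adjusted p = 5.53e-06) and its partner Espl1 one of the lowest (-2.32 ± 0.28, 5.01-fold lower, adjusted p = 2.59e-05). Securin and separase, which bind each other as proteins, thus lay far apart. Ube2c, the ubiquitin-conjugating enzyme of the anaphase-promoting complex, was called lower (-0.36), and Cdc20, its activator, was not called (-0.34, adjusted p = 0.0958).

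All 5 centromere and kinetochore genes were called lower. Cenpe, the kinetochore motor, was at 139.6 to 166.8 CPM in total libraries and at 10.0 and 16.3 (LF), 18.9 and 17.6 (MF) and 10.7 and 13.3 CPM (HF) in polysome libraries (-3.45 ± 0.13, 10.9-fold lower, adjusted p = 1.3e-08). Cenpf, a large coiled-coil kinetochore protein, was close to it (-3.36 ± 0.11, 10.3-fold lower). Ndc80 (-1.22), which grips microtubules, Cenpa (-0.98), the centromeric histone, and Nuf2 (-0.43 ± 0.10, adjusted p = 0.00302), the partner of Ndc80, had smaller ratios. Of the 6 spindle motors and microtubule proteins, 5 were called lower. Aspm was lowest of them (-3.47 ± 0.10, 11.1-fold, adjusted p = 3.46e-09), and Tpx2, which activates Aurka on the spindle, was not called (-0.16, adjusted p = 0.162). Kif11, the motor that separates the spindle poles, was at -1.82, Nusap1, which bundles microtubules at chromosomes, at -1.49, Kif4, a chromosome-bound motor, at -1.41 and Kif2c, which shortens microtubules, at -0.31.

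The 5 genes for the central spindle and cytokinesis were all called lower, from Prc1, which bundles the midzone microtubules (-0.68 ± 0.09, 1.61-fold, adjusted p = 5.54e-05), to Kif23, the motor of centralspindlin (-1.62 ± 0.10, 3.07-fold, adjusted p = 1.57e-07). Between them lay Kif20a, a midzone motor (-0.73), Anln (-1.54) and Ect2 (-1.56), which activates the GTPase that contracts the ring. The 7 genes for condensins and chromosome structure were also all called lower, and they had the lowest median of the 8 roles (-2.13). The condensin subunits ran from Ncaph (-0.55 ± 0.09, 1.47-fold, adjusted p = 0.000155) to Smc4 (-2.94 ± 0.21, 7.7-fold, adjusted p = 5.67e-07), with Ncapd2, Ncapg and Smc2 at -1.16, -1.68 and -2.15. Mki67, the proliferation marker Ki-67 that coats mitotic chromosomes (mm10 chr7:135689784-135716361, minus strand), had the lowest ratio of the 41. It was at 829.7 to 956.1 CPM in total libraries and at 38.5 and 65.4 (LF), 50.9 and 74.0 (MF) and 49.6 and 36.9 CPM (HF) in polysome libraries (-4.12 ± 0.16, 17.4-fold lower, adjusted p = 1.62e-08). The highest polysome library thus stood far below the lowest total library.

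**Figure D2:**
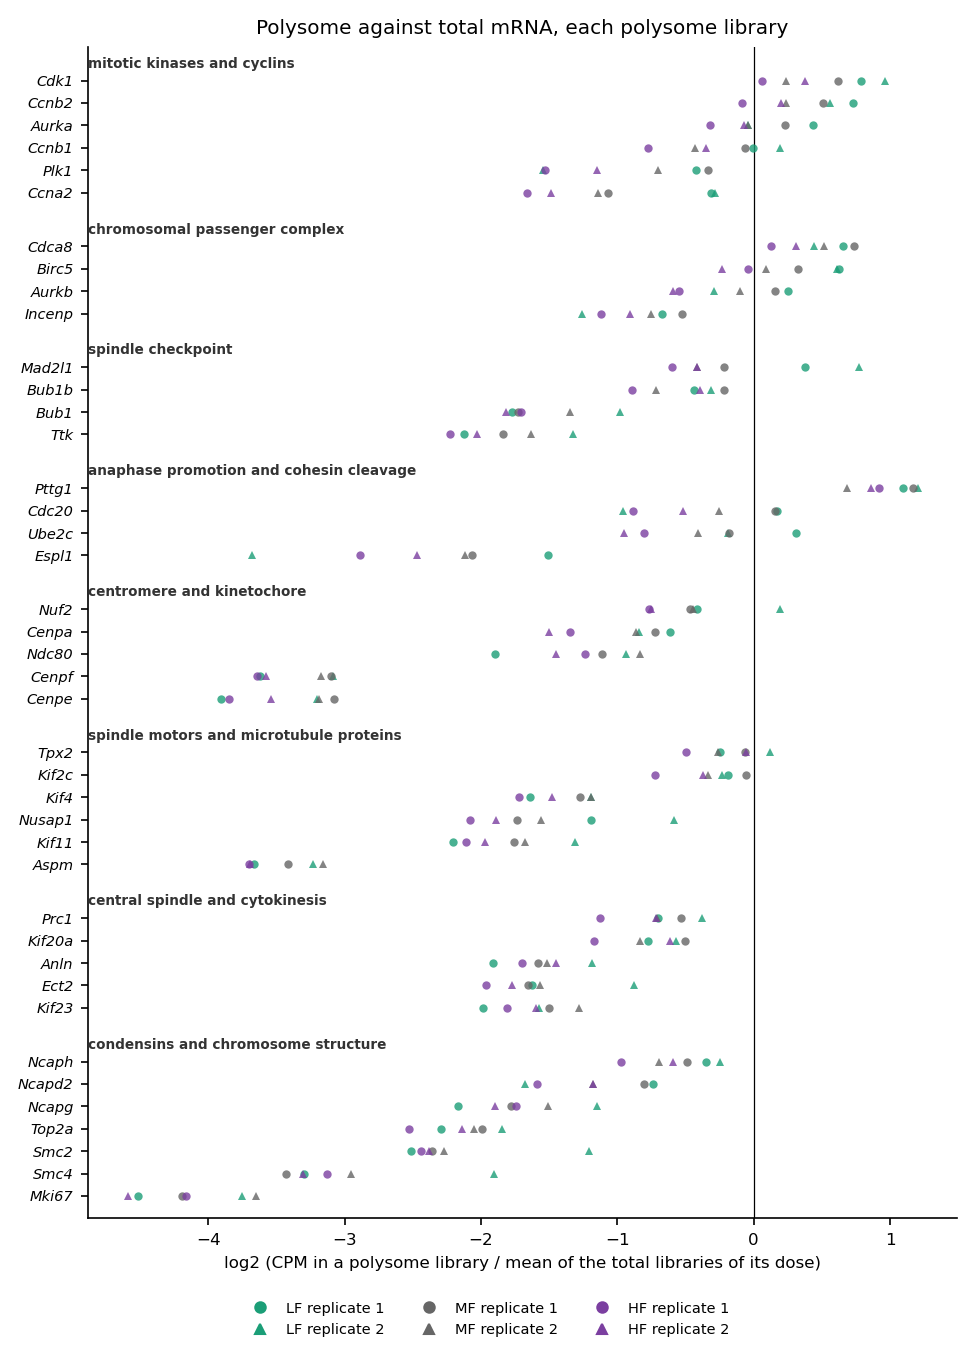
Log2 ratio of normalised CPM in each polysome library to the mean of the total libraries of its dose for the 41 members, grouped by role, with the dose by colour and the replicate by shape. Pttg1 lies right of 0 in all 6 libraries (lowest 0.68), Mki67 lies farthest left (-4.59 to -3.65), and the LF libraries of Espl1 are wide apart (-1.51 and -3.68).

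At the single doses the counts moved in the same direction. At LF 6 members were called higher in polysome mRNA and 25 lower (25.0% and 28.5% of all genes), at MF 3 and 26 (26.0% and 29.3%), and at HF 1 and 33 (25.7% and 30.7%). The member called higher at HF was Pttg1. The members' medians were -0.86 at LF, -0.79 at MF and -1.34 at HF.

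The ratios followed length, that of the coding sequence and that of the transcript alike. The members code for 134 (Cenpa) to 3177 (Mki67) codons, with a median of 745, and across the 41 genes the log2 ratio had a correlation of -0.83 (Pearson) and -0.83 (Spearman) with log2 codons. The corresponding values across 13005 genes with a coding length were -0.37 and -0.45. With the effective transcript length deposited by the authors in place of codons, they were -0.85 and -0.82 across the members. Across the 13005 genes they were -0.38 and -0.51, so coding length and transcript length cannot be told apart here. These are descriptions across genes measured in the same 12 libraries. The 5 members of 2000 or more codons, Mki67, Aspm, Cenpf, Cenpe and Espl1, had a median of -3.45, beside -1.64 for all genes of that length. The 13 members under 450 codons, which include all 4 members called higher, had a median of -0.08, beside 0.38 for all genes of that length. Members were below the median of all genes in each of 6 length classes: by class from shortest to longest, 3 of 4, 7 of 9, 5 of 5, 6 of 8, 9 of 10 and 5 of 5 members lay under it. With the trend on length over all genes removed, 38 of 41 members still had negative values, with a median of -0.85, from -2.73 for Mki67 to 0.58 for Pttg1.

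**Figure D3:**
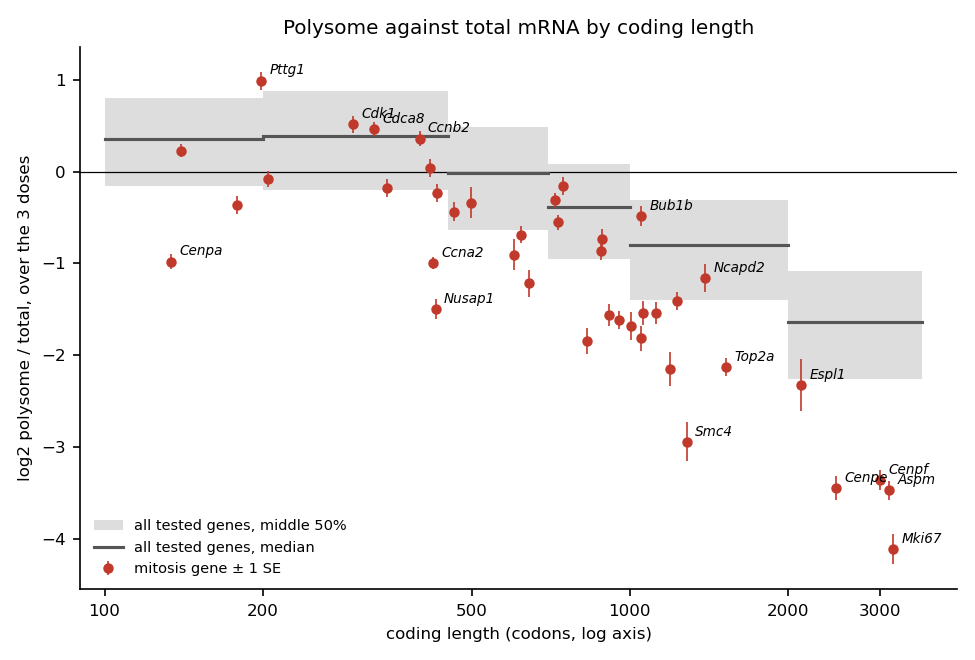
Log2 ratio of polysome to total mRNA over the 3 doses (points, bars of 1 SE) against coding length in codons (log axis) for the 41 members, with the median (line) and interquartile range (grey) of all tested genes in 6 length classes. The members fall with length from near 0 under 450 codons to -4.12 at 3177 codons (Mki67), and most lie under the line of all genes.

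The bases around the start codon, where the ribosome begins, are shown for the 5 members with the lowest ratios and the 4 called higher, so that the extremes can be compared. Windows of 21 bases were read from the spliced GENCODE M21 transcripts around the start codon, with position -3, the start codon and position +4 in capitals. The lowest ratios belong to the first 5.
Mki67: gggcggAccATGGcgtcctcg
Aspm: gtggctGccATGGcgacgatg
Cenpe: gcggacAggATGGccgaggag
Cenpf: taaaacAagATGAgctgggcc
Smc4: acagccAccATGCggcgtaag
Pttg1: taatccAgaATGGctactctt
Cdk1: tgagtaActATGGaagactat
Cdca8: ccaggcGccATGGctcccaag
Ccnb2: gcggccCtcATGGcgctgctc
A purine at position -3 and a G at +4 favour initiation. A purine at -3 was present in 38 of the 40 members read (95.0%) and in 83.9% of 20217 genes, and the exceptions were Ccnb2 and Kif2c. Both features were present in 23 members (57.5%) and in 41% of all genes. Mki67, Aspm and Cenpe, with some of the lowest ratios, have both, as do Pttg1, Cdk1 and Cdca8, so these positions did not separate the extremes. Incenp was not read.

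The next question was whether dose changed what the polysomes held. In HF against MF all 41 members had a negative log2 fold change in polysome mRNA, beside 49.95% of all genes, with a median of -0.30 beside 0.00. No single member was called: edgeR called 0 members, 0.0% of all genes higher and 0.0% lower, DESeq2 called 0 members, and 1 member and 3.37% of all genes had an unadjusted p under 0.05. The fold changes ran from -0.79 (Plk1) to -0.01 (Anln, which scaffolds the contractile ring). In 27 of the 41 members both HF libraries were below both MF libraries, against 28.1% of all genes, and in 0 members both were above, against 26.3%. All 41 stayed negative under most alternatives, and 36 of 41 did at the fewest, without MF replicate 1 or without HF replicate 1. The members were measured in the same libraries, so their signs are not 41 independent results. Between replicates, 10 of 41 members were higher in HF replicate 1 than in HF replicate 2, and 26 of 41 in MF replicate 1. The median absolute log2 difference of the members between replicates was 0.21 at HF and 0.22 at MF. The summed level of the members was 3217.54 and 2818.84 TPM at MF and 2236.38 and 2636.6 TPM at HF. In the same libraries the mural and mesenchymal marker sum was higher at HF (means 606.3 and 871.6 TPM), and its part in the lower values of the members was not tested.

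The members with the smallest p-values in this comparison were Cenpa, Ccna2 and Ube2c. Cenpa was at 40.5 and 36.6 CPM at MF and 26.9 and 24.1 CPM at HF (-0.59 ± 0.22, adjusted p = 0.948). Ube2c was at 83.4 and 71.2 CPM at MF and 56.5 and 51.1 CPM at HF (-0.52, adjusted p = 0.948). Plk1 was at 78.4 and 60.7 CPM at MF and 34.9 and 45.5 CPM at HF (-0.79 ± 0.37, adjusted p = 0.948). Both HF libraries lay below both MF libraries for each of the 3. This fit took its spread from all 6 polysome libraries, the discordant LF pair included. Without LF replicate 1, without LF replicate 2, or with the 4 compared libraries alone, 6 members were called lower: Plk1, Cenpa, Aurkb, Cdc20, Ube2c and Cenpf, with adjusted p of 0.011 to 0.037 in the fit without LF replicate 2, where 3.33% of all genes were called lower and 2.35% higher. The shares of all genes were 2.93% and 2.19% without LF replicate 1, and 3.1% and 2.24% with the compared libraries alone.

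TE rests on the same polysome libraries and had values of the same sign. In HF against MF 0 members and 0.0% of all genes in either direction were called, and DESeq2 called 0 members. At an unadjusted p under 0.05 there were 4 members and 4.15% of all genes. All 41 members were negative (38 with DESeq2's size factors, and 36 at the fewest, without HF polysome replicate 1), beside 49.96% of all genes. The median was -0.33, beside 0.00 for all genes. The 3 smallest p-values belonged to Cenpa (-0.63 ± 0.19), Ccna2 (-0.47 ± 0.15) and Aurkb (-0.61 ± 0.24), each with an adjusted p of 0.982. Without either LF polysome library 5 members were called lower, Cenpa, Aurkb, Plk1, Ube2c and Ccna2, where 1.67% of all genes were called lower without LF replicate 1, 1.78% without LF replicate 2, and 1.21% higher in both fits. With the compared libraries alone 2 were called lower, beside 0.864% of all genes lower and 0.66% higher. By role, the median TE change was -0.58 for anaphase onset, -0.47 for the centromere and kinetochore, -0.39 for the passenger complex, -0.34 for spindle motors and microtubule proteins, -0.31 for kinases and cyclins, -0.26 for the central spindle, -0.21 for the checkpoint and -0.18 for condensins. It did not follow length: the median was -0.33 under 450 codons, -0.31 from 450 to under 1000 and -0.33 at 1000 and over.

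**Figure D4:**
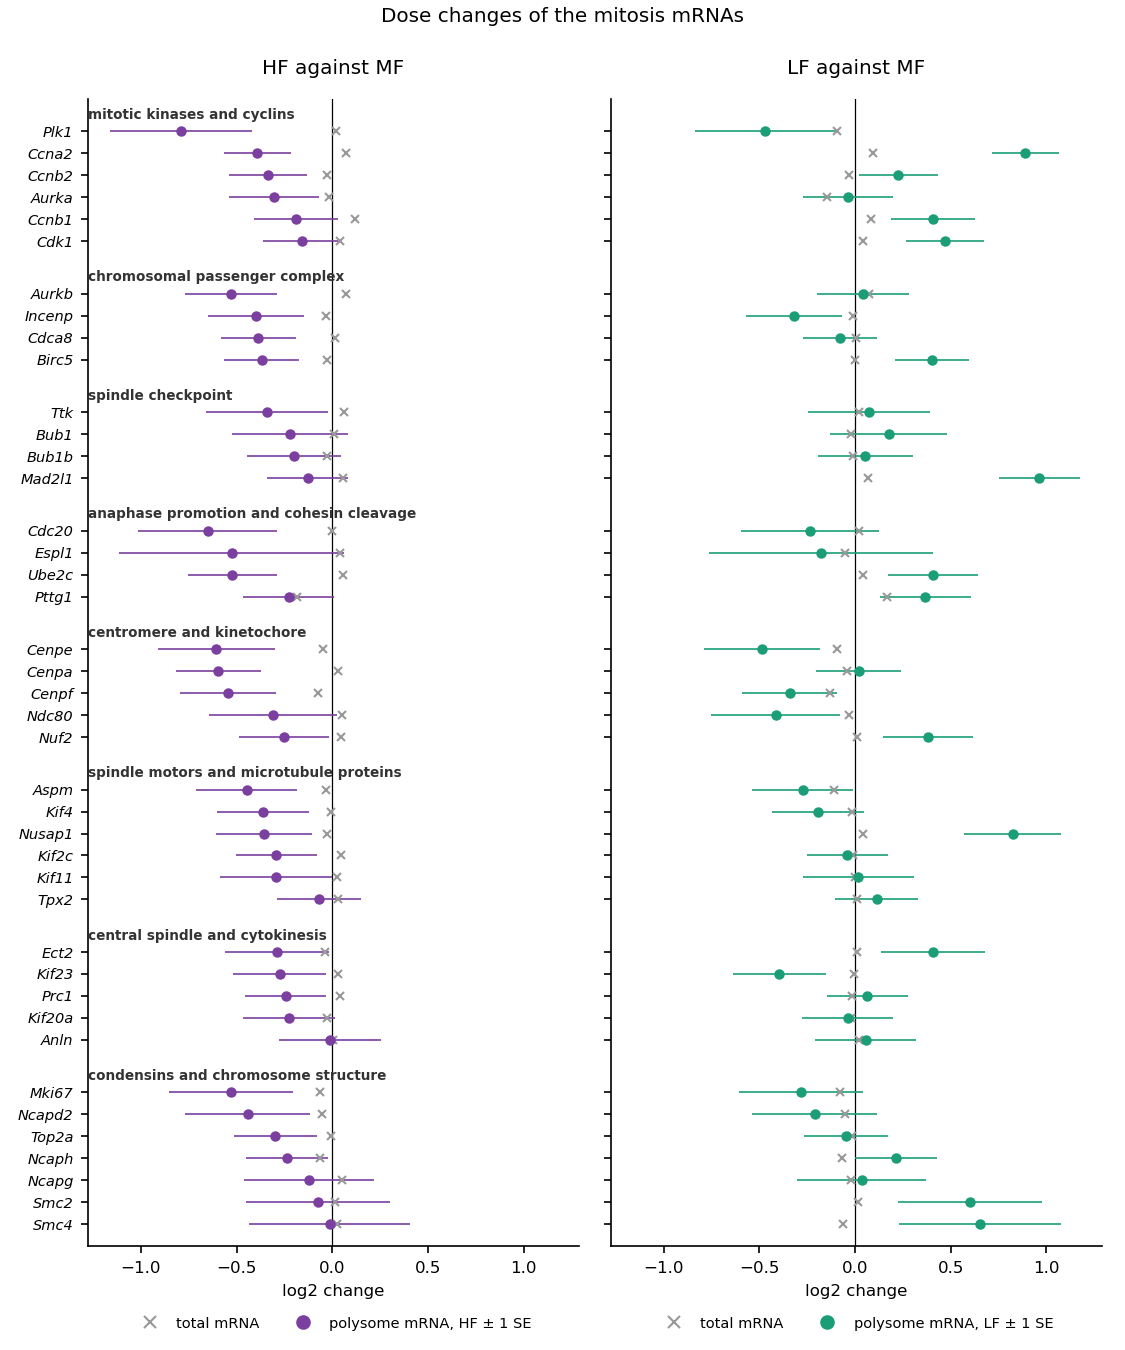
Log2 change against MF of the 41 members at HF (left) and LF (right), grouped by role, in polysome mRNA (circles, bars of 1 SE) and in total mRNA (crosses). At HF all 41 circles lie left of 0, from -0.79 (Plk1) to -0.01 (Anln), at LF they lie on both sides, up to 0.96 (Mad2l1), and the crosses stay near 0 at both doses.

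In LF against MF the members moved in both directions. In polysome mRNA 24 were higher and 17 lower, with a median of 0.04, beside 49.18% of all genes lower and a median of 0.01. These values moved with the LF library: 14 were lower without LF replicate 1 (median 0.16) and 23 without LF replicate 2 (median -0.01). With both, edgeR called 0, where 0.0% of all genes were called higher and 0.0223% lower. DESeq2 called 2 members higher, where it called 1.63% of all genes higher and 3.34% lower. An unadjusted p under 0.05 was found for 4 members and for 17.3% of all genes. Both LF libraries were above both MF libraries in 11 of 41 members, against 25.3% of all genes, and below them in 3, against 24.8%. The 3 with the smallest p-values were higher at LF. Ccna2 was at 251 and 255.2 CPM at LF and 138.9 and 132.2 CPM at MF (0.89 ± 0.17, adjusted p = 0.127). Mad2l1 was at 139.3 and 182.9 CPM at LF and 87.7 and 76.4 CPM at MF (0.96 ± 0.21, adjusted p = 0.137). Nusap1 was at 67.1 and 102.1 CPM at LF and 44.5 and 50.2 CPM at MF (0.82 ± 0.25, adjusted p = 0.198). In all 3 genes the LF libraries did not overlap those of MF. In TE, where 0.0347% of all genes were called higher and 0.201% lower, edgeR called 0 members, and 4 members and 15.8% of all genes had an unadjusted p under 0.05. DESeq2 called 2 members higher, beside 1.46% of all genes higher and 3.02% lower. The TE change was negative in 17 members (median 0.06), beside 48.30% of all genes (median 0.02). It was negative in 12 members without LF polysome replicate 1 (median 0.17) and in 20 without LF polysome replicate 2 (median 0.00). Ccna2 was at 0.80 (adjusted p = 0.0809), Mad2l1 at 0.90 (adjusted p = 0.124) and Nusap1 at 0.79 (adjusted p = 0.195).

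Other members rested on 1 LF library. Espl1 was at 24.7 CPM in LF replicate 1 and 5.5 CPM in LF replicate 2, beside 17.3 and 16.7 CPM at MF. Smc2, the partner of Smc4 in condensin, was at 41.4 and 102.4 CPM at LF and at 45.5 and 48.4 CPM at MF. Cdc20 was at 189.2 and 86.6 CPM at LF, on either side of MF (184.4 and 138.5 CPM). For such genes the LF replicates disagreed by more than the doses differed. Without LF replicate 2, 3 members were called higher (Ccna2, Mad2l1 and Ube2c) and 3 lower (Ndc80, Cenpe and Cenpf), where 2.65% of all genes were called higher and 4.18% lower. Without LF replicate 1, 14 were called higher and 5 lower, where 23.8% of all genes were called higher and 26.7% lower. In these fits the remaining LF library was assumed to vary like the libraries of the other doses. The TE change in LF against MF was related to coding length across the 41 members (Pearson r = -0.45, a description): its median was 0.33 under 450 codons, where 2 of 13 members were negative, and -0.03 at 1000 codons and over. Without LF polysome replicate 1 r was -0.16 and these medians were 0.26 and 0.14, and without LF polysome replicate 2 r was -0.63 and they were 0.35 and -0.36.

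In HF against LF, which spans the widest range of dose and shares its libraries with both comparisons above, 39 of 41 members had a negative log2 fold change in polysome mRNA, beside 48.96% of all genes, with a median of -0.32. Without LF replicate 1 36 were negative (median -0.48), and without LF replicate 2 26 were (median -0.28). With both LF libraries the exceptions were Kif23 (0.12) and Ndc80 (0.10). Both HF libraries were below both LF libraries in 16 members, against 20.4% of all genes, and above in 0, against 21.1%. By edgeR 0 members were called, where 0.0149% of all genes were called higher and 0.0% lower. DESeq2 called 5 members lower, where it called 1.77% of all genes higher and 1.11% lower. An unadjusted p under 0.05 was found for 13 members, all of them negative, and for 14.0% of all genes. In TE 39 members were negative, beside 49.98% of all genes, with a median of -0.40. Without LF polysome replicate 1 36 were negative (median -0.49), and without LF polysome replicate 2 29 were (median -0.24). By edgeR 1 was called lower, Ccna2, where 0.0763% of all genes were called higher and 0.0208% lower.

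Ccna2 encodes cyclin A2, which carries cells through S phase and G2 into mitosis (mm10 chr3:36564865-36572150, minus strand). In total mRNA it was at 304.6 and 318.1 CPM (LF), 283.2 and 299.2 CPM (MF) and 312.3 and 302.8 CPM (HF). Its LF and HF libraries overlapped, both MF libraries lay below them, and no dose comparison of its total mRNA was called. In polysome mRNA it was at 251 and 255.2 CPM (LF), 138.9 and 132.2 CPM (MF) and 97.1 and 109.5 CPM (HF), and no libraries of different doses overlapped. TE in HF was 2.42-fold below LF (log2 -1.28 ± 0.15, adjusted p = 0.0363). The size stayed between -1.36 and -1.19 in every alternative, but the adjusted p was 0.327 with the compared libraries alone and 0.0968 to 0.342 when any 1 total library, either MF polysome library or HF polysome replicate 1 was left out, while it was 7.9e-06 without LF polysome replicate 1 and 0.000248 without LF polysome replicate 2. Exosc9, the gene that shares exon positions with Ccna2, was at 139.8 and 222.9 CPM (LF), 135.1 and 128.4 CPM (MF) and 145.3 and 169.7 CPM (HF) in polysome mRNA, and its TE change in HF against LF was -0.26 (adjusted p = 0.727). As for Ccna2, both LF polysome libraries of Exosc9 lay above both of MF (log2 fold change 0.45, adjusted p = 0.367). Unlike for Ccna2, both of its HF libraries also lay above both of MF (0.26, adjusted p = 0.948). Whether reads of Exosc9 entered the values of Ccna2 was not tested.

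Mad2l1 and Nusap1 had the next smallest p-values. In polysome mRNA at HF, Mad2l1 was at 70.2 and 79.7 CPM (HF against LF, TE -1.09, adjusted p = 0.0752) and Nusap1 at 34.6 and 39.4 CPM (-1.13, adjusted p = 0.0912). The MF libraries of Mad2l1 (87.7 and 76.4 CPM) overlapped those of HF, whereas both MF libraries of Nusap1 (44.5 and 50.2 CPM) lay above both of HF. Without LF polysome replicate 2, TE was called lower in 13 members and higher in 1 (Ndc80), beside 8.57% and 8.65% of all genes. Without LF polysome replicate 1, it was called lower in 24 members and higher in 1, beside 15.6% and 21.9% of all genes. The corresponding counts in polysome mRNA were 14 lower and 1 higher (7.4% and 7.96% of all genes), and 22 lower and 1 higher (Espl1, beside 16.6% and 22.7%). The median TE change in HF against LF was -0.65 under 450 codons, -0.37 from 450 to under 1000 and -0.27 at 1000 and over. With 1 LF polysome library left out the medians were -0.68, -0.38 and -0.48 without replicate 1 and -0.76, -0.24 and 0.05 without replicate 2, and all 13 members under 450 codons were negative in each.

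**Figure D5:**
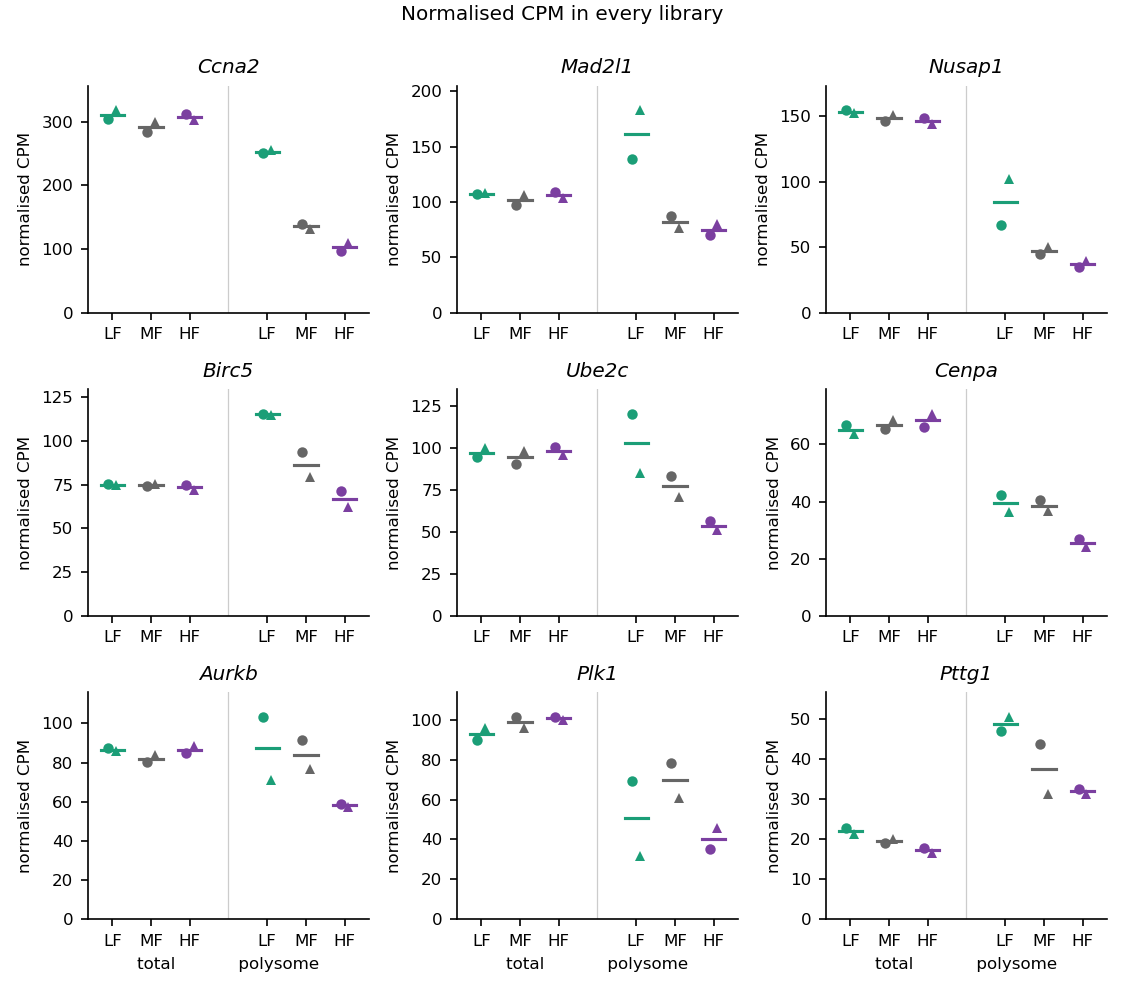
Normalised CPM of 9 members in each library (linear axes from 0), with total mRNA on the left and polysome mRNA on the right of each panel, circles for replicate 1, triangles for replicate 2 and horizontal lines for the mean of a group of 2. In polysome mRNA Ccna2 steps down from 251 and 255.2 CPM at LF to 97.1 and 109.5 CPM at HF while its total mRNA lies between 283.2 and 318.1 CPM, and Plk1 and Aurkb show the gap between LF replicates.

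With both LF libraries counted, a descent of polysome mRNA through all 3 doses without overlap between libraries was seen in 6 of the 41 members, Birc5, Ccna2, Ccnb2, Nuf2, Nusap1 and Ube2c, and in 2.59% of all genes. Birc5 was at 115.5 and 114.5 CPM (LF), 93.3 and 79.3 CPM (MF) and 71.2 and 62.4 CPM (HF). Ube2c was at 120.8 and 85.5 CPM (LF), 83.4 and 71.2 CPM (MF) and 56.5 and 51.1 CPM (HF). Ccnb2 was at 136.3 and 121.0 CPM (LF), 119.2 and 99.1 CPM (MF) and 78.0 and 95.0 CPM (HF). The steps were uneven between these genes, with the larger one from MF to HF for Ccnb2 and from LF to MF for Ccna2. Of the group means, 24 of 41 were in the order LF above MF above HF, against 15.9% of all genes, whereas in total mRNA 4 of 41 were, against 20.8%. In TPM summed over the 13 members under 450 codons, polysome mRNA held 2577.73 and 2456.97 at LF, 2018.54 and 1703.01 at MF and 1429.11 and 1629.29 at HF, beside 2286.67 to 2366.24 in the total libraries.

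Other cell cycle genes were counted beside the members. Of 88 further mitosis genes, 54 were called lower and 14 higher in polysome than in total mRNA over the 3 doses, with a median of -0.49. Of 50 DNA replication genes, which are made earlier in the cell cycle, 13 were called lower and 20 higher, with a median of 0.16. Of all genes tested, 38.4% were called lower and 32.7% higher, with a median of -0.09. In HF against MF, TE was negative in 75 of the 88 mitosis genes (median -0.21) and in 47 of the 50 replication genes (median -0.23). Of all genes 49.96% were negative (median 0.00). In the dose comparisons of total mRNA, polysome mRNA and TE, 0 of either list were called. Among 15 genes that restrain the cell cycle, 2 were called in a dose comparison. Gadd45a, a growth arrest gene, was higher in total mRNA in HF against LF (0.79, 1.73-fold, adjusted p = 0.00161), and Cdkn2a, the gene of the inhibitor p16, had a lower TE in LF than in MF (-1.77, 3.4-fold, adjusted p = 0.0497). The Cdkn2a value was -2.13 without LF polysome replicate 1 and -1.48 without LF polysome replicate 2, both called, but the call was lost with any other single library left out (adjusted p = 0.111 to 0.357 by edgeR), with the compared libraries alone (0.327) and with the replicate block (0.0759).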

How the data were processed

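Total and polysome poly(A) RNA from mouse NSCs at 3 doses of folic acid was sequenced with a strand-preserving kit in 12 libraries. The authors trimmed reads with Trim Galore, aligned them with Bowtie2 2.2.9 to mm10 and assigned them to genes with RSEM 1.3.0. The expected counts deposited by the authors are estimates, of which 4.04% to 5.95% in a library were not whole, and they were rounded. The deposited TPM and the effective gene length, an other measurement of the authors, came from the same run. TPM was used to describe levels between genes and, for single genes and sums, between libraries. It was not scaled by TMM and entered no test. Of 43432 identifiers, 42462 matched GENCODE M21. Labels gave the groups. The members and all lists were chosen with earlier results of these data known.

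Tests used edgeR 4.0.16 under R 4.3.3 (TMM, filterByExpr, robust quasi-likelihood F test, Benjamini-Hochberg adjustment). Total mRNA was tested in 6 libraries (13912 genes, 3 residual degrees of freedom), polysome mRNA in 6 (13433 genes, 3 degrees), and TE and the polysome ratio in all 12 (14421 genes, 6 degrees, TE as the interaction of fraction and dose). Every adjusted p is from edgeR unless DESeq2 1.42.0 is named. Calls needed both an adjusted p below 0.05 and a fold of more than 1.2. The study's TE tool, Xtail, was not used here. Standard errors are the log2 fold change divided by the root of its F value. Normalised CPM used the TMM factors of the 12 libraries. The length trend was a lowess fit of span 0.3. The fits were also run on simulated counts, drawn with the same spread for every library of a fit. Those counts held no discordant pair like the LF polysome libraries, so they do not show how the fits perform with such a pair. Counts are read pairs without molecular identifiers. Replicates differed by more than sampling noise (chi-square per degree of freedom 2.78 to 143.7), so none was counted as a duplicate.

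Named members were the highest and the lowest polysome ratio of each role, the 3 smallest p-values of each dose comparison and every member called in one. Other members were named to complete a role or after their values were seen. Alternatives were DESeq2, its size factors, no low-count filter, the replicate number as a block, the compared libraries alone, each library left out and, for the ratio, the removed length trend.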

Additional observations from a re-analysis of the deposited data

Results flagged for a closer look

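For Ccna2, the change of TE in HF against LF was -1.28 on the log2 scale. It was called by a test of whether the dose effect differed between polysome and total mRNA. This was the interaction of fraction and dose in edgeR (adjusted p = 0.0363). The call was lost with the compared libraries alone (adjusted p = 0.327), with the replicate block (0.0540) and in most fits with 1 library left out. The size of the change was similar in all of these fits. Groups of 2 libraries are too small to look for a library far from the others of its group.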

How the results depend on the processing

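The number of members called depended on the spread assumed for polysome mRNA and so on the LF polysome pair. In HF against LF, 0 members were called in total mRNA (main count 1) by DESeq2 and with the compared libraries alone. With those alone, 6 were called in polysome mRNA and 2 in TE for HF against MF, 0 in TE for HF against LF and 16 in the polysome ratio at LF (main count 31). In that fit of the ratio at LF, 11.5% of all genes were called higher and 13.4% lower. Without the low-count filter, polysome calls were 2 in LF against MF and 3 in HF against LF. Of all genes, 0.726% were called higher and 1.98% lower in the first, and 0.867% and 0.389% in the second. TE calls in that order were 1 and 4, beside 0.239% higher and 0.812% lower, and 0.546% and 0.312%. By DESeq2, polysome calls were 2 and 5 and TE calls 2 and 6. In TE for HF against LF, DESeq2 called 3.09% of all genes higher and 1.88% lower. The replicate numbers did not pair the libraries (correlations of their deviations -0.23 to 0.21, not over 0.1 in every pair). With the replicate block, polysome calls in HF against LF were 1, beside 0.223% of all genes called higher and 0.0819% lower. TE calls were 0 there, with an adjusted p of 0.0540 for Ccna2. The other counts stayed within 1.5 times of those without the block.

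With 1 library left out, calls ranged 0 to 0 (HF against LF) and 0 to 1 (LF against MF) in total mRNA. In polysome mRNA they ranged 0 to 6 (HF against MF), 0 to 19 (LF against MF) and 0 to 23 (HF against LF), and in TE 0 to 5, 0 to 18 and 0 to 25, with the high counts from leaving out LF polysome replicate 1 or 2. Over the 3 doses 33 to 36 members were called in the polysome ratio, and 27 to 35, 24 to 34 and 29 to 37 at LF, MF and HF. Medians ranged -0.44 to -0.25 (HF against MF) and -0.51 to -0.24 (HF against LF) in polysome mRNA, -0.54 to -0.24 for TE in HF against LF, -0.85 to -0.70 for the ratio at LF and -1.34 to -1.17 at HF. The ratio's median over the 3 doses was -0.92 without the filter and -0.85 with the length trend removed, which also gave -0.73 at LF and -1.01 at HF. The ratio of Mad2l1 over the 3 doses turned from -0.08 to 0.032 without LF polysome replicate 1 and was -0.143 without LF polysome replicate 2. The causes were not tested. With 2 libraries per group, a missing call does not show that a member did not change.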
